A study of Mus musculus with 2 samples.

Results

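Accessible chromatin was described at the genes of 6 ubiquitin ligases that restrain or tune T cell activation, Cbl, Cblb, Itch, Peli1, Rnf128 and Nedd4, in inflammation-experienced regulatory T (Treg) cells. The genes were chosen by name, with earlier results of these data known. They are 6 of the 21853 protein-coding genes of the GENCODE annotation on mm10. Their regions were those with a summit in the gene body or the 5 kb on either side of it, or whose nearest protein-coding transcript start, within 100 kb, belonged to the gene. This gave 33 of the 29415 accessible regions of the IDR-thresholded list, where IDR, the irreproducible discovery rate, is a measure of how well peaks rank alike in 2 sets. The cells came from a male adult mouse aged 6 months of the strain Foxp3CreERT2 x Rosa26YFP, in which a drug-inducible Cre recombinase is placed under Foxp3, the lineage factor of Treg cells, and a yellow fluorescent reporter is switched on by Cre. The assay was ATAC-seq, in which the Tn5 transposase cuts and tags open DNA. Both samples came from the same donor, as technical replicates 1 and 2 of biological replicate 1. With 1 group, conditions could not be compared and no test over samples was made. The labels call them primary cells of bone marrow hematopoietic origin, and give neither the inflammation nor the way they were isolated.

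A ubiquitin ligase picks the protein to which ubiquitin is attached, which can mark it for degradation or move it to another compartment. Cbl and Cblb are RING ligases with a domain that reads phosphotyrosine. Both act on signalling proteins next to the T cell receptor, and Cblb sets the need for costimulation through CD28. Peli1, of the Pellino family, and Rnf128, known as GRAIL and anchored in endosomal membranes, are RING ligases too. Itch and Nedd4 are HECT ligases, which carry ubiquitin on their own catalytic cysteine before passing it on. Loss of Cblb or Itch in mice leads to autoimmune or inflammatory disease. Cblb, Itch and Rnf128 are known for their induction in anergic T cells, in which calcium signalling through NFAT and, for Cblb, the factors Egr2 and Egr3 act upstream. Nedd4 is known to promote T cell activation and to target Cblb.

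Each value below is a single value per region, since the lists hold none per library and were taken to pool both. Fold is the authors' linear enrichment over a background that is not stated, at the highest summit of a region, and −log10 p is the greatest value of the peaks merged into it. Fold and p are the authors' own values, used here only to describe and rank regions within 1 list. Library depth is not given in the sources used here, so its limit on these values is unknown. A region open in few cells and a region weakly open in many cells cannot be told apart in bulk chromatin. Openness is not a measure of transcript or protein. Marker genes of cell types were set beside the label. An open promoter was found at 4 of 5 Treg marker genes (Foxp3, Il2ra, Ctla4 and Ikzf2, but not Tnfrsf18). The same held for 5 of 6 T cell marker genes (all but Cd4), and the medians were 8 and 3 regions per gene. Over all protein-coding genes, 49.7% had an open promoter and the median was 1 region. Promoters were open in 0 of 4 myeloid, 0 of 3 NK cell, 0 of 3 erythroid, 0 of 3 dendritic cell, 1 of 4 B cell (Pax5) and 1 of 2 CD8 T cell (Cd8b1) marker genes, and the NK cell marker Klrb1c had 10 regions without an open promoter.

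All 6 ligase genes had at least 1 region, as did 63.0% of protein-coding genes. The regions were spread unevenly. Cblb had 17, Peli1 10, Cbl 3, and Itch, Rnf128 and Nedd4 had 1 each. Of all protein-coding genes, 1.49% had 10 or more regions and 0.229% had 17 or more. An open promoter, meaning a region that overlapped the 1000 bp on either side of a protein-coding transcript start, was found at 5 of the 6 ligase genes and at 49.7% of protein-coding genes. Nedd4 was the exception. The 5 promoter regions had folds of 20.7 at Itch, 17.4 at Rnf128, 16.9 at Peli1, 16.1 at Cblb and 10.8 at Cbl, against a median of 15.4 (quartiles 11.0 and 19.8) over all 10802 promoter regions.

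**Figure D1:**
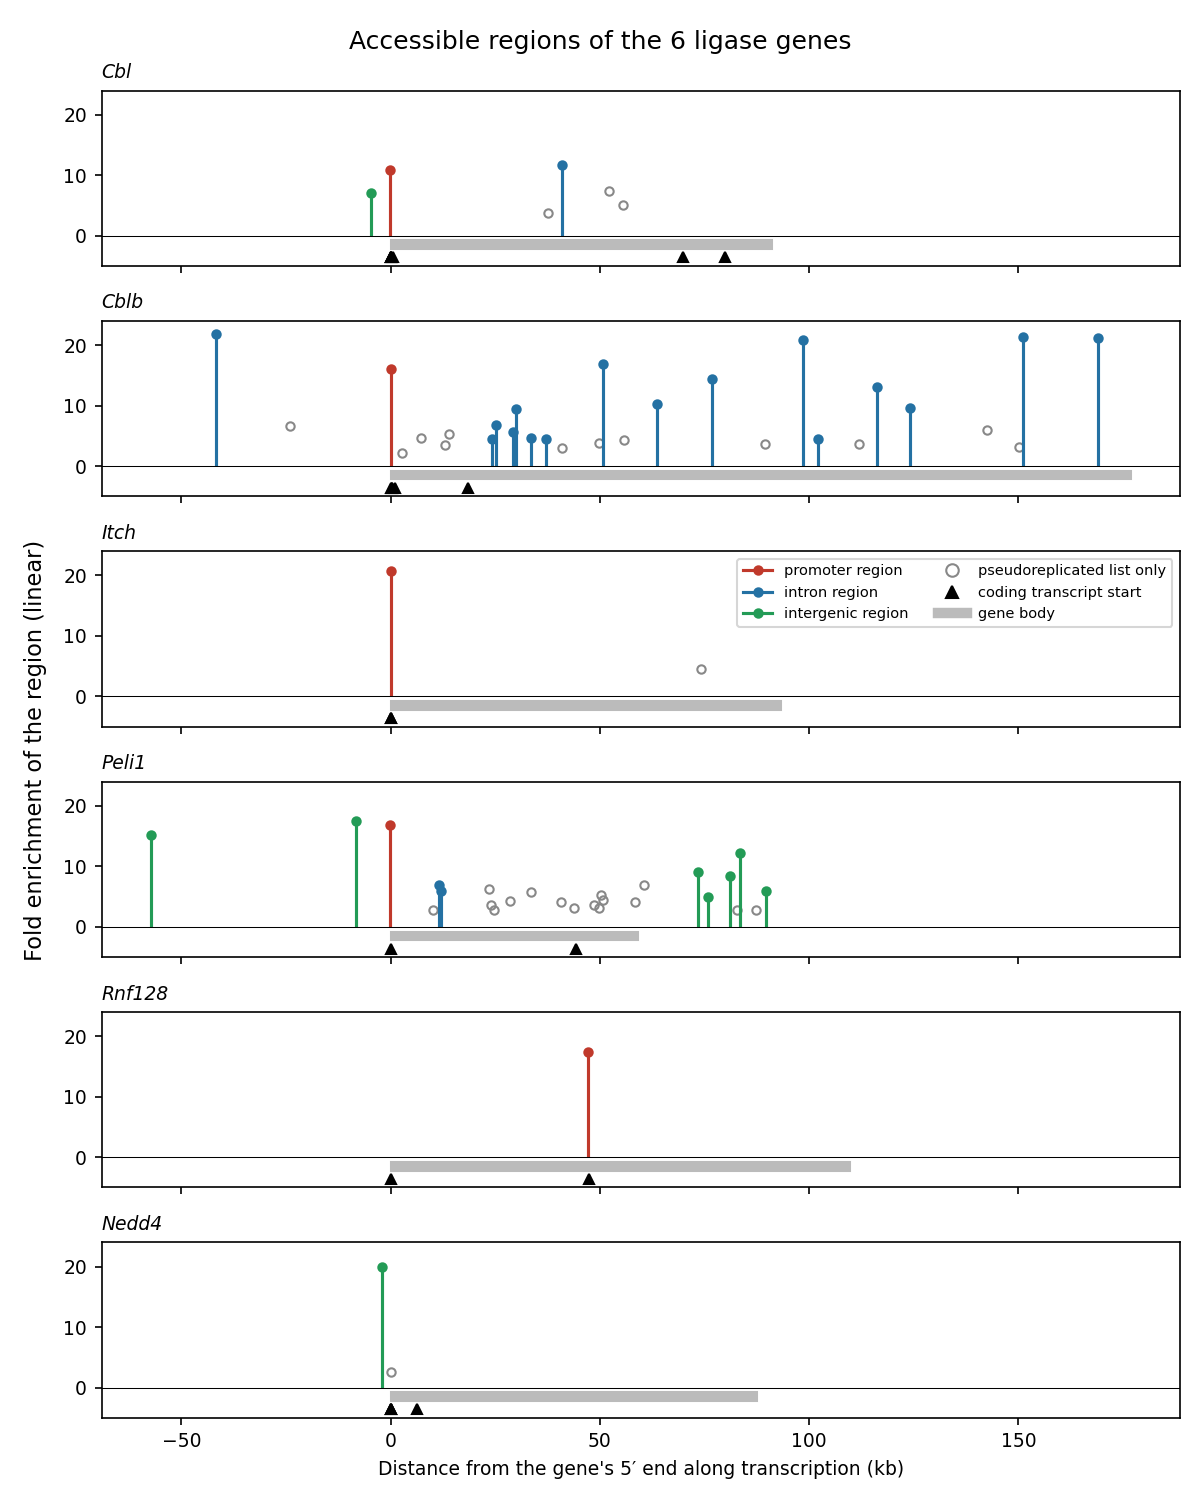
Accessible regions of the 6 ligase genes, plotted by the distance of the summit from the 5′ end of the gene along the direction of transcription (x axis, kb) and by fold enrichment (y axis, linear). Filled points are regions of the IDR-thresholded list coloured by class, open circles are regions found only in the pseudoreplicated list, triangles are starts of coding transcripts and grey bars are gene bodies. Cblb and Peli1 carry 17 and 10 filled points, and Nedd4 has a filled point only upstream of its starts; the blue point farthest left at Cblb lies in an intron of a noncoding gene.

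The bases next to the 5 promoter summits are shown because they are where the fold of each ligase promoter was highest. They are read on the strand of the gene from GRCm38.p6, up to 60 bases to either side of the summit, without bases of an annotated exon. Capitals mark motif matches, of which those of Cbl run past the 50 bp from the summit used for the motif counts.
Cbl, chr9:44234205-44234325, minus strand, SP-KLF motifs: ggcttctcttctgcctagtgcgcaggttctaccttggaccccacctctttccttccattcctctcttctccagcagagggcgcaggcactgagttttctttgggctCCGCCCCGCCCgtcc
Cblb, chr16:52031154-52031224, plus strand, an ETS motif: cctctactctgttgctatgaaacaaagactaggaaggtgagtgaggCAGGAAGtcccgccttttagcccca
Itch, chr2:155133436-155133508, plus strand, a CTCF core motif: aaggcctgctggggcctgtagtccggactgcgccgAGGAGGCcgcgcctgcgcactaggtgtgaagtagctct
Peli1, chr11:21091184-21091290, plus strand, an SP-KLF motif: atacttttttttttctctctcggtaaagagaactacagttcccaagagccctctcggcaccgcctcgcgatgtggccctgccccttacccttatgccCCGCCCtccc
Rnf128, chrX:139610519-139610619, plus strand, a CTCF core motif and overlapping EGR and SP-KLF motifs: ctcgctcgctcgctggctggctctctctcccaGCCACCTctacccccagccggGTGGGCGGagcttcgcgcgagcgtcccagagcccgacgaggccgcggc
In these stretches the GC content was 75.2% at Rnf128, 67.1% at Itch, 60.3% at Cbl, 56.1% at Peli1 and 50.7% at Cblb. Over the whole promoter regions it was 63.0% to 67.5%, with an observed over expected CpG ratio of 0.868 at Peli1, 0.818 at Rnf128, 0.804 at Cbl, 0.740 at Itch and 0.656 at Cblb. The 28 regions outside the promoters held fewer CpG pairs, with ratios of 0.0526 to 0.556 and a GC content of 36.6% to 53.3%.

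By class, 5 of the 33 ligase regions lay at promoters (15.2%, 95% exact binomial interval 5.11% to 31.9%, counting error only), against 36.7% of all regions (36.2% to 37.3%). Introns held 19 (57.6%), against 33.7% of all regions. Intergenic sequence held 9 (27.3%), against 24.6%. Exons held 0, against 4.96% of all regions. The rule takes every region in the body of a long gene. Cblb supplied 16 of the 19 intron regions, including its upstream region in an intron of the noncoding gene Gm29686. Without the regions of Cblb, promoters made up 25.0% of the other 16 ligase regions (7.27% to 52.4%). The median fold over the 33 regions was 10.8 (quartiles 6.72 and 16.9), against 13.1 (quartiles 9.30 and 17.5) over all regions. Their median −log10 p was 106, against 92.5. In introns the ligase regions had a median fold of 9.66 and a median −log10 p of 106, against 11.6 and 68.0 for all intron regions, so they were lower by one value and higher by the other. In intergenic sequence the medians were 9.02 and 80.7, against 12.6 and 70.0. Ligase regions were 570 bp wide at the median, against 659 bp, and 57.6% held several summits, against 55.9%.

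Cblb (ENSMUSG00000022637, chr16:52031225-52208048, plus strand, 177 kb) had the most regions. The number of regions was at the 99.8 percentile of protein-coding genes. Among 673 genes whose length was within 20% of that of Cblb, the median was 2 regions (quartiles 0 and 4), and 11 of them (1.63%) had 17 or more. Its regions covered 11577 bp and 16 of them had their summit in the gene body and its flanks, or 8.56 per 100 kb of that span. The promoter region, chr16:52031015-52032044, had a fold of 16.1, at the 67.8 percentile of all regions, and a −log10 p of 615, at the 99.1 percentile. That was the greatest −log10 p of the 33 ligase regions. Its summit lay 11 bp upstream of the 5′ end of the gene, and 4 coding starts within 992 bp shared it. A coding start 18428 bp into the gene had no region in any of the 3 lists.

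Across the introns of Cblb, numbered along its longest coding transcript, the regions differed in strength. The highest folds were near both ends of the locus and in its middle. Upstream, chr16:51989238-51989647 had the highest fold of all 33 ligase regions, 21.9, at the 90.4 percentile of all regions, with a −log10 p of 123. It lay 41750 bp upstream of the gene in an intron of the noncoding gene Gm29686. In intron 4, chr16:52129169-52130053 had a fold of 20.8 and a −log10 p of 483, which was the next greatest −log10 p after that of the promoter. In intron 13, chr16:52181793-52182591 had a fold of 21.3 and a −log10 p of 327. In intron 18, chr16:52199971-52200846 had a fold of 21.1 and a −log10 p of 236, and at 150650 bp it was the region farthest from any Cblb start. The last pair lay in the gene body of Cblb, but the coding start nearest to them was that of Alcam, which encodes an adhesion molecule, at 114686 and 96621 bp. A region in the body of a gene need not act on that gene, and no contact data were used here. Intron 9 held a region with a fold of 13.1 and a −log10 p of 226, intron 10 one with 9.66 and 43.5, and intron 5 the lowest fold of the 33, 4.41, with 35.6.

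Intron 3 of Cblb held 9 regions. Of these, 6 lay within 13.4 kb (chr16:52055158-52068589) with gaps of at most 5 kb, the longest such run at the 6 genes, and covered 3394 bp of it. In the direction of transcription their folds were 4.55, 6.72, 5.64, 9.37, 4.59 and 4.50, and their −log10 p values 31.0, 116, 106, 255, 72.6 and 34.7. The folds of the run were thus at or below the 25.7 percentile of all regions, while 4 of the 6 had a −log10 p above 70. Of all 3472 regions with a fold under 7, 15.2% had a −log10 p above 70 and the median was 42.1 (quartiles 30.7 and 59.1). Of the 6 Cblb regions with a fold under 7, 3 passed 70, and of the 4 such Peli1 regions, 0 did. These limits of 7 and 70 were chosen after the values had been seen. The other regions of intron 3 had folds of 16.9, 10.2 and 14.4 and −log10 p values of 266, 121 and 75.0, at 50797, 63716 and 76845 bp from the 5′ end. The rank of the run by its span depends on the gap limit of 5 kb. The regions beyond the 3′ end of Peli1 are parted by gaps of at most 5663 bp, and no other limit was tried.

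**Figure D2:**
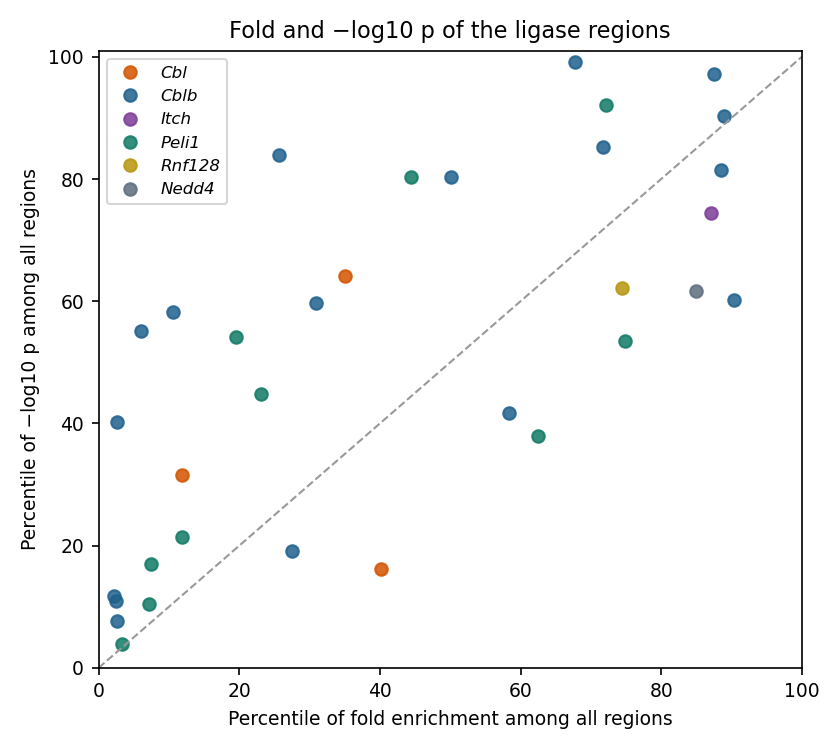
Percentile of fold enrichment (x axis) against percentile of −log10 p (y axis) among all 29415 regions, for the 33 ligase regions coloured by gene, with a dashed line of equal percentiles. Several Cblb regions lie far above the line, such as the intron 3 regions with folds of 6.72 and 5.64, which stand at the 10.6 and 6.02 percentile of fold and at the 58.3 and 55.2 percentile of −log10 p.

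The bases around the summit of the highest Cblb region outside the promoter, 41750 bp upstream, hold the same ETS motif as the promoter stretch, on the other strand. They are shown because this summit had the highest fold at any ligase gene.
Cblb upstream, chr16:51989415-51989535, plus strand: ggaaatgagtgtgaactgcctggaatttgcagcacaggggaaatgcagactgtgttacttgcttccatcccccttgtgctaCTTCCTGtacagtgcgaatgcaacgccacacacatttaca

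Peli1 (ENSMUSG00000020134, chr11:21091291-21150323, plus strand, 59.0 kb) restrains T cell activation and is known to target the NF-kB subunit c-Rel. Its 10 regions put it at the 98.9 percentile of protein-coding genes. Among 1675 genes of similar length the median was 2 regions (quartiles 1 and 3), and 23 of them (1.37%) had 10 or more. In contrast to Cblb, only 3 of the 10 had a summit in the gene body or its 5 kb flanks. The other 7 were intergenic and were taken by their nearest start, and with the gene body and flanks alone Peli1 would have 3. The genes of similar length were matched on body length and not on the space around them. The count of 3 was not set beside theirs. The promoter region, chr11:21090865-21091937, had a fold of 16.9 (72.2 percentile of all regions) and a −log10 p of 352 (92.1 percentile). Intron 1 held an adjacent pair 11520 and 12117 bp from the start, with folds of 6.99 and 5.95 and −log10 p values of 46.1 and 34.1.

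Upstream of Peli1, chr11:21082651-21083367 had the highest fold at the gene, 17.5, with a −log10 p of 102, at 8370 bp from the start. Farther upstream, chr11:21033731-21034550 had a fold of 15.2 and a −log10 p of 68.7, and at 57338 bp it was the region farthest from any Peli1 start. Beyond the 3′ end, 5 regions lay 73551 to 89603 bp from the 5′ end of the gene. Their folds in that direction were 9.02, 4.85, 8.42, 12.2 and 5.98, and their −log10 p values 80.7, 26.5, 104, 226 and 41.3. The fourth of them, chr11:21174291-21174840, therefore stood out from its neighbours by both values, and the second, with the lowest −log10 p of the 33, was the weakest. The nearest start to all 5 was an inner coding start of Peli1, 44178 bp into the gene, which itself had only a weak region in the pseudoreplicated list (fold 3.06, −log10 p 6.20). The bases around the summit 8370 bp upstream of Peli1, where its fold was highest, hold a GATA motif.
Peli1 upstream, chr11:21082861-21082981, plus strand: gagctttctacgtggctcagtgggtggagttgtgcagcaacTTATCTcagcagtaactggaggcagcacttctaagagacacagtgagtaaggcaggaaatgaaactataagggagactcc

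**Figure D3:**
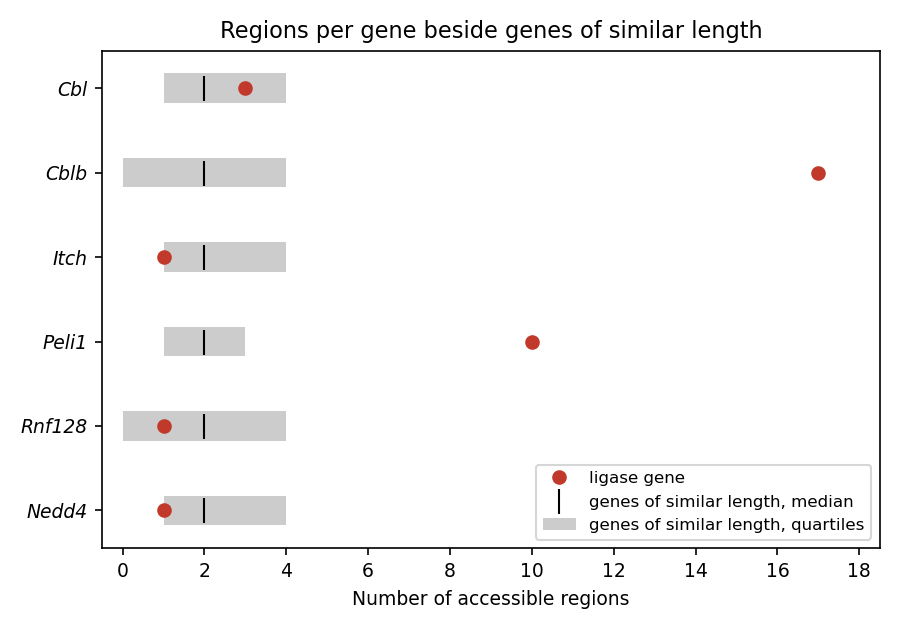
Number of accessible regions (x axis) of each ligase gene (red points), beside the median (black line) and quartiles (grey bar) of protein-coding genes whose length is within 20% of its own. Cblb with 17 and Peli1 with 10 lie beyond their grey bars, and Cbl, Itch, Rnf128 and Nedd4 lie within theirs.

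Cbl (ENSMUSG00000034342, chr9:44142976-44234049, minus strand, 91.1 kb) is known to act on activated receptor tyrosine kinases and on Zap70. It had 3 regions, against a median of 2 (quartiles 1 and 4) among 1266 genes of similar length, of which 40.8% had 3 or more. Its promoter region, chr9:44233057-44234440, was the widest of the 5 at 1384 bp and held 5 summits. That region also had the lowest fold of the 5, 10.8, at the 16.3 percentile of the highest promoter folds of genes with an open promoter, with a −log10 p of 137. The 5 coding starts within 505 bp of the 5′ end shared it. The other 2 coding starts, 69920 and 79791 bp into the gene, had no region in any list. In intron 2, chr9:44192748-44193140 had a fold of 11.6 and a −log10 p of 40.5, so the fold was close to that of the promoter and the −log10 p much lower. It was the region farthest from any Cbl start, at 28868 bp. Upstream, chr9:44238506-44239050 had a fold of 7.00 and a −log10 p of 59.4 at 4625 bp from the 5′ end, but it was nearer to the start of Ccdc153, at 2002 bp. The summit of the intron 2 region, the highest outside the promoter, holds RUNX and IRF motifs, with an E-box motif near the edge of the stretch.
Cbl intron, chr9:44192937-44193057, minus strand: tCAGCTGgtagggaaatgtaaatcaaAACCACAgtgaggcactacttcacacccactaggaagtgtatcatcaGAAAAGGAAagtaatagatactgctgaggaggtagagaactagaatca

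Itch, Rnf128 and Nedd4 had 1 region each, although 76.7%, 74.7% and 78.1% of genes of similar length had as many or more. Itch (ENSMUSG00000027598, chr2:155133509-155226855, plus strand, 93.3 kb), which targets JunB, had only its promoter region, chr2:155133152-155134138. At 20.7 that was the highest promoter fold of the 6 genes, at the 76.1 percentile of the highest promoter folds of genes with an open promoter, with a −log10 p of 187. Both coding starts of Itch, 50 bp apart, lay in it.

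Rnf128 (ENSMUSG00000031438, chrX:139563316-139673145, plus strand, 110 kb) was open at only 1 of its 2 coding starts. The start at the 5′ end of the gene had no region in any of the 3 lists. The other start, 47304 bp downstream, lay in chrX:139610035-139611157, with a fold of 17.4 and a −log10 p of 130. Within 500 bp to either side, the CpG ratio was 0.834 and the GC content 64.3% at the open start, against 0.457 and 40.4% at the start with no region. Counted from the 5′ end of the gene alone, Rnf128 would have no open promoter.

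Nedd4 (ENSMUSG00000032216, chr9:72662346-72749852, plus strand, 87.5 kb) had no open promoter in the thresholded list. Its 3 coding starts within 141 bp had CpG ratios of 0.855 to 0.870 and a GC content of 70.9% to 71.6%, as rich in CpG as the start regions of Peli1 and Rnf128 that were open. Of 5416 protein-coding genes whose most CpG-rich start had a ratio of 0.8 or more, 84.2% had an open promoter and 15.8% had none (a limit chosen after the values had been seen). The pseudoreplicated list held a weak region at these starts, chr9:72662368-72662543, 176 bp wide with a fold of 2.65 and a −log10 p of 4.28. By that list 6 of 6 ligase genes had an open promoter, against 55.3% of protein-coding genes. A start 6334 bp into the gene had a CpG ratio of 0.132 and no region. Instead, Nedd4 had an upstream region, chr9:72660119-72660516, with a fold of 20.0, at the 85.0 percentile of all regions, and a −log10 p of 128. Its summit lay 1999 bp upstream of the 5′ end, outside the promoter window of 1000 bp, and the region had a CpG ratio of 0.231. With a window of 2000 bp Nedd4 would have an open promoter. Its bases are shown because it is the only region of Nedd4 in the thresholded list, and the capitals mark an NFAT motif more than 50 bp from the summit.
Nedd4 upstream, chr9:72660287-72660407, plus strand: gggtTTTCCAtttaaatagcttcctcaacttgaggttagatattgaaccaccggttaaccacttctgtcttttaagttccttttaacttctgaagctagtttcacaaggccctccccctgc

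The pseudoreplicated list added weaker regions at 5 of the 6 genes and left all 33 regions with the same intervals. It added 16 at Peli1, with folds of 2.73 to 6.90, 12 at Cblb (2.19 to 6.57), 3 at Cbl (3.78 to 7.33), 1 at Itch (4.55) and 1 at Nedd4 (2.65), and none at Rnf128. With these, Cblb had 29 regions and Peli1 26. The strongest at Peli1 were a region 60590 bp from the 5′ end, past the end of the gene, with a fold of 6.90 and a −log10 p of 32.0, and one 23454 bp into it with 6.26 and 30.9. At Cblb an intron region 7268 bp from the 5′ end had the greatest −log10 p of those added, 32.4, with a fold of 4.62. The folds of the added regions overlapped those of the weakest thresholded regions at the same genes, which went down to 4.41 at Cblb and 4.85 at Peli1.

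In the ranked list each peak also has a −log10 p in each of the 2 sets that were ranked against each other. It is not known whether these were the libraries or splits of the pooled reads. If they were splits, their agreement would say nothing about agreement between the libraries. The thresholded list holds peaks kept for a low IDR, so some agreement between the sets was built into it. At the highest summit of each region, the values in both sets were within 2-fold of each other at 32 of the 33 ligase regions (97.0%), against 98.7% of all regions. At the Cblb promoter they were 290 and 329, at the Peli1 promoter 179 and 206, and at the Itch promoter 92.3 and 97.0. At Nedd4 they were 56.3 and 70.3. The exception was the last region of the Cblb run, chr16:52067568-52068589, with 33.9 and 8.04. Its ratio of the first set to the second was 4.22. Over the highest summits of all 29415 regions this ratio ran from 0.173 to 4.22, and the lower end is the greater difference between the sets. This region is 1022 bp wide with 4 summits, and at the summit next to the highest, with a fold of 4.31, the values were 14.0 and 16.3. Over all 64 summits of the ligase regions 84.4% were within 2-fold, against 84.9% of all peaks of the thresholded list. Summits of the same region can carry the same value in a set. At the Itch promoter, summits with folds of 4.13 and 20.7 both had 97.0 in the second set. In the first set they had 5.64 and 92.3. The shares over all summits include such repeated values, so they are not a plain measure of agreement between the sets.

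**Figure D4:**
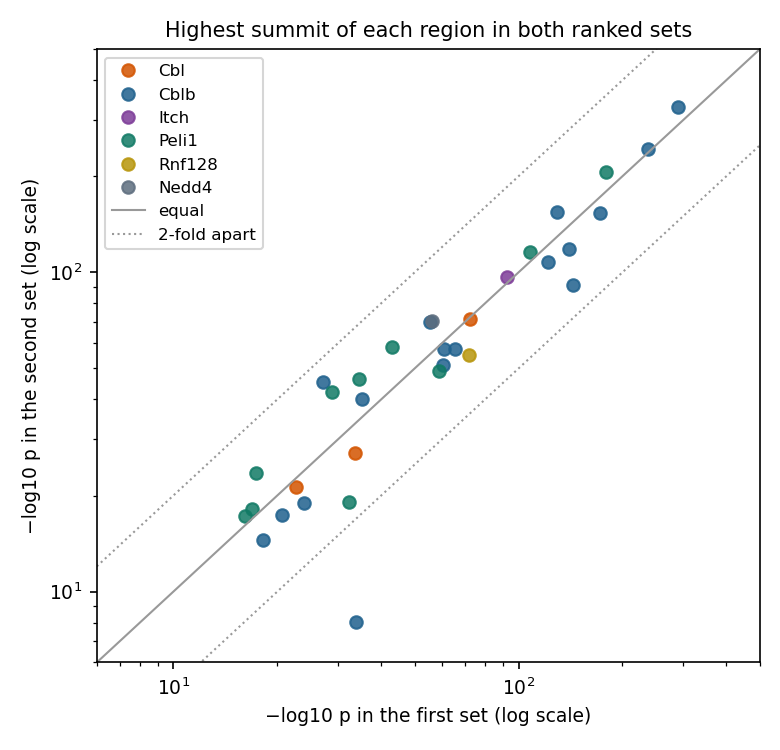
The −log10 p of the highest summit of each of the 33 ligase regions in both sets of the ranked list (x axis the first set, y axis the second, both log scales), coloured by gene, with a line of equality and dotted lines at 2-fold. Only 1 Cblb region, with 33.9 and 8.04, lies outside the dotted lines.

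Consensus letters of 23 motifs were searched on both strands within 50 bp of each summit. A match is a description of the letters and not of binding. The ETS form CAGGAAG was the most frequent, in 10 of the 33 ligase regions (30.3%, 95% exact interval 15.6% to 48.7%), against 15.7% of all regions. It occurred in 7 regions of Cblb and 3 of Peli1. Outside promoters the shares were 32.1% for the ligase regions and 20.3% for all regions. The ETS form with a CpG, CCGGAAG, was in 0 ligase regions, which leaves an exact upper limit of 10.6%, against 6.51% of all regions. Its share was 12.8% of all promoter regions but 2.87% of all regions outside promoters. The ligase regions held a smaller share of promoters than all regions, so the shares of all regions differ in class mix. IRF letters (GAAANNGAA) were in 5 (15.2%, 5.11% to 31.9%), against 4.88%, at 3 regions of Cblb, 1 of Cbl and 1 of Peli1. RUNX (TGTGGTT) and AP-1 (TGANTCA) were in 3 each (9.09%, 1.92% to 24.3%), against 6.35% of all regions for either motif. The GATA letters, AGATAA, were also in 3, against 3.32%. The TCF-LEF letters, CTTTGAT, were in 3 as well, against 2.12%. NFAT (TGGAAA) was in 2 (6.06%, 0.743% to 20.2%), against 7.19%, at the intron 13 region of Cblb and an intron 1 region of Peli1. The lower limit of the interval lay close to or below the share of all regions for each of these, and 23 motifs were looked at. Shares depended on the window. Over the whole region the ETS form CAGGAAG was in 57.6% of ligase regions, against 37.7% of all regions, and AP-1 letters were in 33.3%, against 20.4%. NFAT letters were then in 48.5%, against 42.4%, so the ligase share was the higher one there and the lower one within 50 bp.

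EGR and NR4A letters were taken up more closely after their values had been seen, since Egr2, Egr3 and the Nr4a factors are known for roles in tolerant T cells. EGR letters (GTGGGCG) were in 4 of the 33 ligase regions (12.1%, 3.40% to 28.2%), against 4.06% of all regions. These were the promoters of Cblb and Rnf128 and a Cblb region each in introns 3 and 18. In all but the Cblb promoter, an SP-KLF match (GGGCGG) overlaps the EGR match, so the letters do not tell these apart, and the Cblb promoter match lies in an exon. NR4A letters (AAAGGTCA) were in 2 (6.06%, 0.743% to 20.2%), against 0.483% of all regions, at an intron 3 region of Cblb with a fold of 16.9 and at the region of Peli1 with a fold of 12.2. Within the whole region instead of 50 bp, EGR letters were in 21.2% of ligase regions against 14.5% of all regions, and NR4A letters in 6.06% against 3.24%. The matches with 15 bases to either side are printed so that the letters and their surroundings can be read. In all 4 the match is on the minus strand, so the capitals are the reverse complement of the letters above.
Cblb intron 3, EGR, chr16:52094947-52094983, plus strand: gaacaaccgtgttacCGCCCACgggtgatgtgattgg
Cblb intron 18, EGR, chr16:52200320-52200356, plus strand: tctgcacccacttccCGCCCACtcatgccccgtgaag
Cblb intron 3, NR4A, chr16:52081971-52082008, plus strand: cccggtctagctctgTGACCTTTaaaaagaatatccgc
Peli1 beyond the 3′ end, NR4A, chr11:21174623-21174660, plus strand: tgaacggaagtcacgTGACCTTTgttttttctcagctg
Among motifs that were rarer at the ligase regions, the CTCF core letters (AGGNGGC) were in 2 (6.06%), against 16.1% of all regions, both at promoters. NFY (CCAAT) was in 1 (3.03%), against 16.4%. Outside promoters, NFY letters were in 3.57% of ligase regions, against 10.6% of all regions, and CTCF core letters in 0%, against 14.4%. SP-KLF letters were in 2 of the 5 promoters, against 42.7% of all promoter regions. The E-box CACCTG was in 3 (9.09%), against 8.10%, the E-box CAGCTG in 1 (3.03%), against 6.19%, and NRF1 (GCGCATGCG) in 1 (3.03%), against 0.649%. The letters searched for FOX (TGTTTAC, 1.48% of all regions), STAT (TTCNNNGAA, 2.78%), KLF (CCACACCC, 1.54%), NF-kB (GGANTTTCC, 0.982%), YY1 (AAGATGGCG, 0.493%), BACH-MAF (GCTGANTCA, 1.07%, which contains the AP-1 letters) and CREB (TGACGTCA, 1.53%) were in 0 of the 33.

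**Figure D5:**
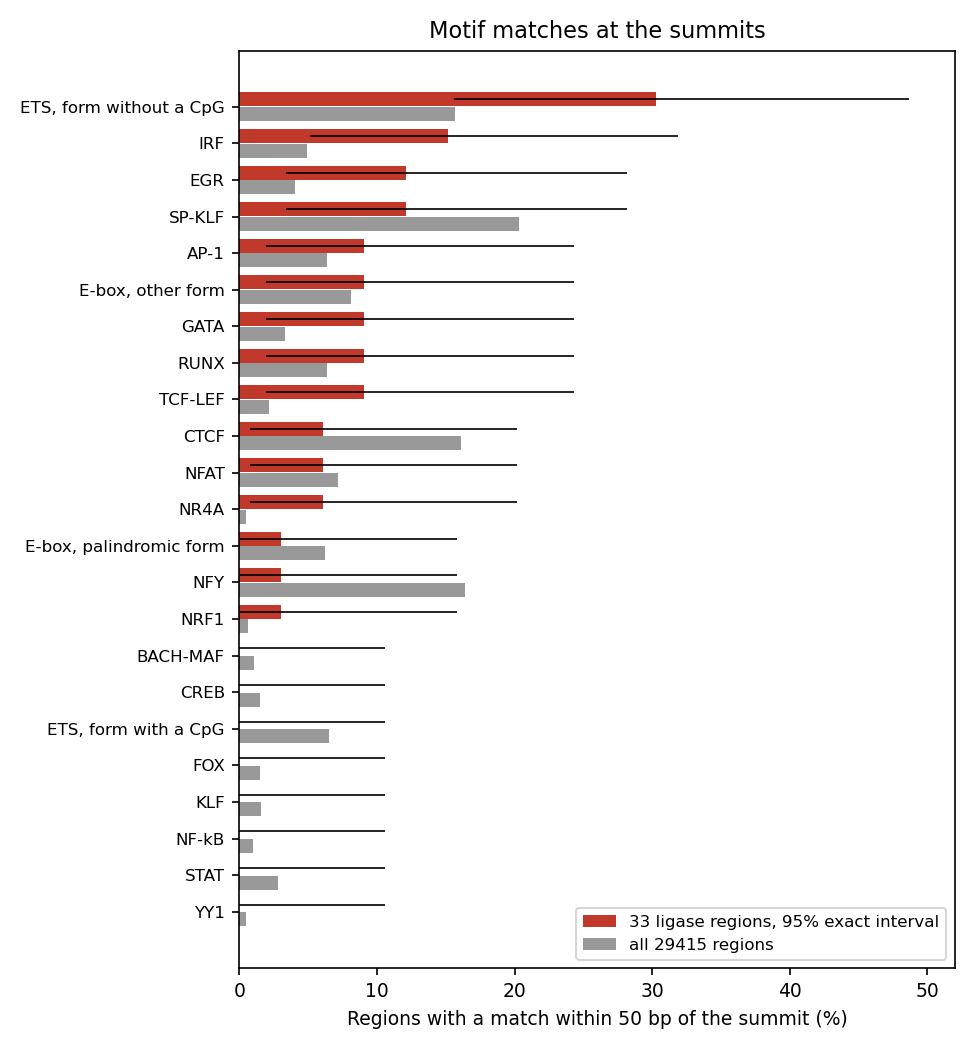
Percentage of regions with a motif match within 50 bp of the summit (x axis) for 23 motifs, in the 33 ligase regions (red bars, with 95% exact binomial intervals as black lines) and in all 29415 regions (grey bars). The ETS form without a CpG has the longest red bar, 30.3% against 15.7%, and most intervals of the ligase regions include the grey value.

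Genes that work with the ligases were described from 4 lists. Of 19 relatives in the same ligase families, 12 had an open promoter (63.2%, exact interval 38.4% to 83.7%), with a median of 2 regions per gene. The share over all protein-coding genes, 49.7%, lay inside that interval, and their median was 1 region. Among them, Hecw2 had 9 regions without an open promoter, Nedd4l 8 and Smurf1 6, all HECT ligases of the Nedd4 family. The highest promoter folds were 23.0 at Cblc, the third gene of the Cbl family, 22.9 at Rnf13, which like Rnf128 is anchored in membranes, and 21.7 at Wwp1. No region was found at Peli2, Rnf133, Rnf148, Rnf150 and Hecw1. So Peli1 had 10 regions, while its relatives Peli2 and Peli3 had 0 and 2.

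Of 14 adaptors and partners, 14 had an open promoter (exact interval 76.8% to 100%), against 49.7% of protein-coding genes, with a median of 3.50 regions, against 1. Sh3kbp1, an adaptor bound by Cbl proteins, had 16 regions, Sla, an adaptor that recruits Cbl to the T cell receptor, 10, and Ndfip1, which activates Itch and Nedd4, 8. The highest promoter folds were 20.2 at Usp8 and 15.5 at Otub1, both deubiquitinases linked to Rnf128, and 14.6 at Sla2. Of 19 substrates, 16 had an open promoter (84.2%, 60.4% to 96.6%), against 49.7% of protein-coding genes, with a median of 4 regions, against 1. Prkcq, a kinase downstream of the T cell receptor, had 19 regions without an open promoter, Pik3r1, a kinase subunit bound by Cblb, 14, and Cd247, the zeta chain of the T cell receptor complex, 12. The highest promoter folds among substrates were 19.1 at Crkl, 15.2 at Bcl10, and 13.8 at both Cd247 and Irak1.

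Of 15 genes tied to T cell anergy, 14 had an open promoter (93.3%, 68.1% to 99.8%), against 49.7% of protein-coding genes, with a median of 6 regions, against 1. The factors known to act upstream of the ligases were among them, with 17 regions at Nfatc1, 8 at Nfatc2, 6 at Egr3 and 4 at Egr2. Ikzf1, a zinc finger repressor, had 13 and Nrp1, a surface receptor, 12. The highest promoter folds were 16.7 at Tob1, a repressor of T cell proliferation, and 14.8 at both Dgkz, a diacylglycerol kinase, and Nr4a1. The median promoter fold was 16.9 over the 5 ligases with an open promoter, 8.35 over the anergy genes, 10.5 over the substrates, 13.0 over the adaptors, 12.8 over the relatives and 16.4 over all genes with an open promoter. Among genes with an open promoter, the highest promoter fold stood at the 76.1 percentile at Itch, 56.8 at Rnf128, 53.8 at Peli1, 48.1 at Cblb and 16.3 at Cbl. The lists were drawn up by hand, with earlier results of these data known. They differ in gene length and in how many of their genes T cells use. None of these shares was tested, and the intervals cover counting only.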

How the data were processed

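ATAC-seq peaks of 2 technical replicates of 1 biological replicate were used. The deposited text files state that the authors derived pseudoreplicated, IDR-thresholded and IDR-ranked peaks on mm10 from a filtered alignment, the pseudoreplicated and thresholded ones also from a file of unnamed content. Not given in the sources used here are the aligner, the caller, versions, the IDR threshold, the Tn5 shift and the depth. Each deposited peak has a fold enrichment (a linear ratio), a −log10 p, a score of up to 1000 and a summit position. The deposited ranked list also gives −log10 of the IDR and −log10 p in 2 sets. The lowest score of the thresholded list, 540, corresponds to an IDR of 0.05.

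The 58138 thresholded peaks were merged where they overlapped or touched, and the row with the greatest fold gave the summit. Genes were those of GENCODE M21 and sequences those of RefSeq GRCm38.p6, after chromosome names were matched and 0 rows were found past a chromosome end. Regions were classed as intergenic, intron, exon or, with a summit within 1000 bp of a coding start, promoter. Shares have exact Clopper-Pearson 95% intervals, which cover counting only. Python 3.11.15, pandas 2.3.3, scipy 1.17.1 and pysam 0.24.0 were used, with scripts tested on simulated data.

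The members, lists and motifs were chosen with earlier results of these data known. Named by rule were all 6 members with their highest promoter region, highest other region and farthest region, and, of each list, the 3 genes with most regions, the 3 with the highest promoter fold and those with 0 regions. Other genes and regions were named after their values were seen. Alternatives were other lists, thresholds, flanks, promoter windows, merging and windows for motifs.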

Additional observations from a re-analysis of the deposited data

How the results depend on the processing

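Of 67 alternative values of the main results, 55 stayed and 12 did not. Of 84 further alternative values, for the regions per ligase gene and for motif shares, 61 stayed and 23 did not. Staying meant within 1.5 times the main count, or inside the counting interval of the main median or share. Those intervals were wide, 7.00 to 16.1 for the median fold and 5.11% to 31.9% for the promoter share. Open promoters of ligases, adaptors, substrates and anergy genes were already near the size of their lists. Those counts could not rise past 1.5 times, so settings that only add regions or widen windows could not move them. The pseudoreplicated list and the whole ranked list gave the same values, so they are 1 setting counted as 2. The ligase regions kept their intervals in the pseudoreplicated list, so the alternative on that overlap could not change. The number of ligase regions was 66 in the pseudoreplicated list, 66 in the whole ranked list, 64 with summits counted singly and 14 among the 50% of regions with the highest fold, and the median fold in the same 4 settings was 5.67, 5.67, 5.94 and 17.4. Among the 50% with the highest fold, an open promoter was left at 5 of 19 relatives, 7 of 14 adaptors, 5 of 19 substrates and 4 of 15 anergy genes. It was left at 4 of the 6 ligase genes. Fewer regions were counted there, and the share of all protein-coding genes was not computed in that setting. These counts therefore cannot be read against all genes. In that setting Cblb had 8 regions, Peli1 3 and Cbl 0. With a flank of 10 kb Itch had 2 regions. Without the regions of Cblb, an alternative added after the data had been seen, the median fold was 11.2. No paired analysis was possible because the samples formed 1 group and the lists held no value per sample. The design has 1 biological replicate, the depth is unknown, and leaving out a replicate could not be done, so no value here carries an error between animals or libraries.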
